A study of Mus musculus with 5 samples.

Results

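The 3′ untranslated regions (3′ UTRs) described here were the T-poor ones of middle length. They were every distinct interval longer than 300 and shorter than 3000 bases in which T made up a share of 0.22 or less of the bases. There were 1427 such intervals among the 40428 distinct intervals counted, with 1026 gene names, and the other 21744 intervals of the same length, with 13326 gene names, served as the comparison. The T share is a property of the sequence, and the rule uses no measured value.

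The intervals were counted in cultured cardiac fibroblasts (CF) of adult healthy male C57Bl/6J wildtype mice. The cells had been depleted of CD31 and CD45 positive cells and grown to confluency. In 3 labeled libraries the cells were given 0.1 mM of the uridine analogue 4-thiouridine (S4U) for 12 h, and in 2 unlabeled libraries cells were incubated in parallel without it. RNA of both groups was treated with iodoacetamide. No source ties a replicate number of one group to that of the other, and the spread between libraries may be partly technical.

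In SLAMseq, newly made RNA carries S4U at some of its uridines, and the alkylated S4U is read as C instead of T. The T>C rate of an interval is therefore the number of T>C conversions over the number of T positions that reads covered, and it rises with the share of new RNA. A transcript shows its label only where it has a T, so an interval poor in T offers fewer positions per read. 3′ UTRs also hold short T-rich elements, such as AU-rich elements and Pumilio sites, that are known for controlling how long an mRNA lasts.

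Reads on the distinct intervals numbered from 729040 to 2337177 in the labeled libraries and 1473009 and 2771513 in the unlabeled ones. Fibroblast markers were all read in every labeled library, and their summed level was 41697 to 45571 CPM, which here means reads per 1000000 of those on 1 interval per gene, and 34219 and 37695 CPM in the unlabeled ones. The cardiomyocyte markers summed to at most 9.04 CPM in any library, and Myl2, Myl3 and Ryr2 were at 0 in the labeled ones. All 6 endothelial markers were read in every labeled library, with sums of 115 to 218 CPM there and 162 and 236 CPM in the unlabeled libraries, and 1 of them, Tie1, had a T-poor interval. Of the 7 immune markers 6 were read in every labeled library, with sums of 67.3 to 126 CPM against 66.2 and 135 CPM. None of the 11 fibroblast markers had a T-poor interval. The smooth muscle and pericyte markers summed to 1029 to 2429 CPM in the labeled and 527 to 959 CPM in the unlabeled libraries, and 3 of these 6 genes (Cnn1, Cspg4 and Myh11) had a T-poor interval. In such bulk samples, fewer cells of a type and less RNA per cell cannot be told apart.

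The T-poor intervals were rich in C and G rather than in A. Their median composition was 24.4% A, 27.9% C, 26.8% G and 20.7% T, against 26.7% A, 21.8% C, 21.8% G and 29.1% T in the other intervals. The median G+C content was thus 55.1% against 43.9%, and CpG was found 1.70 times per 100 bases against 1.04. They were also shorter, with a median of 607 bases against 1059. T-poor intervals made up 12.6% of the intervals under 500 bases and 1.58% of those of 2000 bases or more. Their share differed between chromosomes, from 1.26% on X and 1.45% on 13 to 9.32% on 15 and 9.72% on 7.

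The letters ATTTA, the core of an AU-rich element, stood on the transcript strand of 32.8% of the T-poor and 73.1% of the other intervals. The same held within every length class compared, for example 17.5% against 44.8% under 500 bases and 59.7% against 94.3% from 2000 bases on. TGTANATA, the Pumilio motif, was found in 6.17% and 22.8%. A poly(A) signal, which directs cleavage of the transcript, depended less on the T share. AATAAA or ATTAAA lay within the last 50 bases of 67.0% of the T-poor and 74.7% of the other intervals. These matches describe the letters and not bound sites. ATTTA and TGTANATA need at least 3 letters T each, so a lower share in T-poor sequence follows in part from the rule itself.

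Windows of 30 bases around the poly(A) signal are shown because the reads lie near the transcript end. They are given 5′ to 3′ on the transcript strand from GRCm39, with the signal in capitals, for genes that had the lowest and the highest T>C rates or the lowest T share below.
Hp, chr8:110301768-110301797, minus strand: tgctcagtcaacAATAAAaaaatgtgcttt
Ctsa, chr2:164681470-164681499, plus strand: actaattctggaATTAAAtcgggtatagct
Rcn3, chr7:44732349-44732378, minus strand: ctgcctaggagcAATAAAagctgttgctgg
Gadd45g, chr13:52002480-52002509, plus strand: tttgaatatcacAATAAActtattgaaaca
Arpc1b, chr5:145064965-145064994, plus strand: aaaatgtgggctAATAAAcataccaaatgt
Ltbr, chr6:125283542-125283571, minus strand: taatcacacacgAATAAAaacaagatggag

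The 30 bases held 9 T in Hp, 10 in Ctsa, 7 in Rcn3, 10 in Gadd45g, 7 in Arpc1b and 4 in Ltbr. The T share of the whole interval was 20.1%, 20.6%, 18.5%, 16.9%, 17.7% and 18.7% in the same order, and only the window of Ltbr was poorer in T than its interval.

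Several members were not plain 3′ UTRs in the annotation (GENCODE vM39). Coding sequence filled more than 50% of 87 T-poor intervals (6.10%), against 0.940% of the others. An exon of another gene overlapped the opposite strand in 24.9% of the T-poor intervals and 16.2% of the others. The strand rule used in counting was not given in the sources used here. The 1427 intervals lay at 1042 separate places, since 679 of them overlapped another T-poor interval, often an alternative form of the same gene. The annotation listed 91.1% of the T-poor intervals on reference chromosomes under their gene name.

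The interval with the most reads did not hold an mRNA. LOC118568312 (chr17:40157394-40158063, plus strand) lies inside Rn18s-rs5, a gene of 18S ribosomal RNA, and is called the 18S interval below. It had 319, 4582 and 2361 reads in labeled replicates 1 to 3 and 468 and 3521 in unlabeled replicates 1 and 2. Its T>C rate was 0.00902, 0.00282 and 0.00303 in the labeled and 0.00565 and 0.000851 in the unlabeled libraries, so that the groups overlapped. Results that rest on sums of reads are therefore given with and without it.

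Reads were found in every labeled library for 709 of the 1427 T-poor intervals (49.7%) and for 59.5% of the others, and 404 T-poor intervals had no read in any library. The level was compared over 1 interval per gene among genes with a read in every labeled library. This filter was passed by 386 of 688 T-poor genes (56.1%) and 7410 of 11304 other genes (65.6%). The median level of the T-poor genes was 15.9, 19.2 and 17.8 CPM in labeled replicates 1 to 3, and that of the other genes was 29.8, 31.0 and 29.6 CPM. In the unlabeled libraries it was 16.6 and 16.1 CPM against 32.02 and 31.1 CPM. The T-poor median was the lower one in all 5 libraries, and the ratio of the medians was 0.585 ± 0.0468 (SD, n = 3 labeled libraries). Without the filter the ratio was 0.333, and among genes with at least 10 reads in every labeled library it was 0.767. A level of at least 100 CPM was reached by 35 to 44 T-poor genes (5.09% to 6.40% of 688) and by 11.7% to 12.7% of the other genes in the labeled libraries. The poly(A)-primed reads lie at the transcript end, so these levels were not divided by length.

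The T>C rate asks how much of an interval's RNA was new after 12 h. Where each library covered 1000 T or more, which 40 T-poor intervals of 31 genes and 2146 other intervals reached, the median rate of the T-poor ones was 0.0275, 0.0310 and 0.0293 in labeled replicates 1 to 3. The other intervals had 0.0383, 0.0395 and 0.0392. The T-poor median was the lower one in each labeled library and lay at 71.8% to 78.5% of the other. In the unlabeled libraries the medians were 0.000307 and 0.000204 against 0.000594 and 0.000380. T-poor minus other gave -0.00971 ± 0.00118 (SD, n = 3) in the labeled and a mean of -0.000232 in the 2 unlabeled libraries. An exact permutation test of these differences over libraries (two-sided, 10 arrangements) gave p = 0.1, the smallest that 3 against 2 libraries allow, so the design cannot pass 0.05.

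The size of the difference depended on the coverage required. When 100 covered T per library were enough, 348 T-poor and 9319 other intervals remained. The T-poor medians were then 0.0320, 0.0338 and 0.0340 and the others 0.0378, 0.0389 and 0.0389. The difference was -0.00521 ± 0.000467 (SD, n = 3) in the labeled libraries, again with exact permutation p = 0.1. T-poor reads cover fewer T, so the minimum of 1000 kept the T-poor genes with many reads. Among T-poor intervals above 160 CPM the mean of the library medians was 0.0289 ± 0.00165 (SD, n = 3), and between 10 and 160 CPM it was 0.0335 to 0.0353. The other intervals varied little with level, from 0.0379 to 0.0391 over the same 5 classes. In every class of level the T-poor median was below the other in all 3 labeled libraries.

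**Figure D1:**
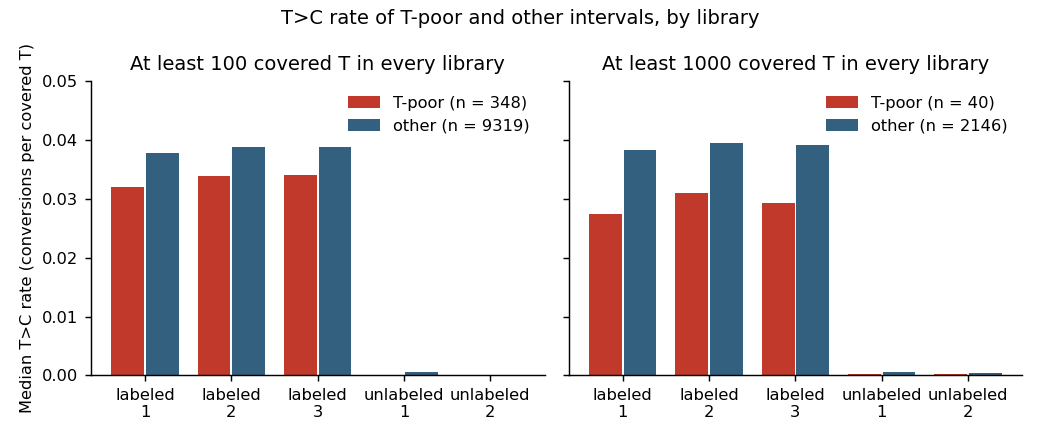
Median T>C rate (conversions per covered T) of T-poor (red) and other (blue) intervals of middle length in each of the 5 libraries, where each library covered 100 (left) or 1000 (right) T or more. Each bar is the median over the intervals named in the legend. The red bar is the lower one in all 3 labeled libraries, and at 1000 covered T the T-poor medians are 0.0275 to 0.0310.

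The rate rose along the T share. Classes of T share with at least 1000 covered T were compared by the mean of the 3 labeled medians. For 13 intervals of 9 genes with a T share of 0.18 to 0.20 it was 0.0277 ± 0.00287 (SD). These 3 medians equalled the rates of the Eng interval named below, which has a T share of 20.6%. This class value and that of Eng are therefore not separate results. The mean for 24 intervals of 20 genes at 0.20 to 0.22 was 0.0294 ± 0.00191. It was 0.0333 ± 0.00171 for 90 intervals of 0.22 to 0.24, 0.0353 ± 0.000927 at 0.24 to 0.26, and 0.0407 ± 0.00104 at 0.32 to 0.35. Only 3 intervals lay at or below 0.18 with this coverage, at 0.0361 ± 0.00351. With at least 100 covered T the 19 intervals at or below 0.18 had 0.0339 ± 0.00318, the 67 of 0.18 to 0.20 had 0.0314 ± 0.00193 and the 262 of 0.20 to 0.22 had 0.0336 ± 0.00122. The ranges of mean ± SD of these 3 classes overlapped at 100 covered T. At 1000 covered T the median of the 3 intervals at or below 0.18 lay above that of the next class in every labeled library. Across 1446 intervals, 1 per gene and with at least 1000 covered T, Spearman's rho between T share and rate was 0.295, 0.312 and 0.304 in labeled replicates 1 to 3. These points share their libraries and their depth. Over the same intervals, rho between G+C content and rate was -0.260, -0.278 and -0.267. Both were weaker over 5746 intervals with at least 100 covered T. There rho was 0.210, 0.213 and 0.156 for T share and -0.205, -0.213 and -0.161 for G+C content.

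**Figure D2:**
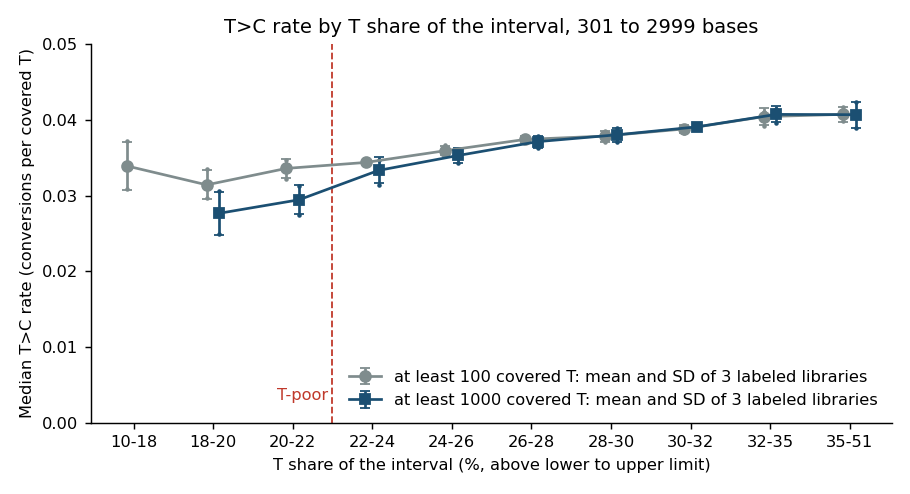
T>C rate (conversions per covered T) against the T share of the interval (%), where each library covered 100 (grey) or 1000 (blue) T or more. Large points and bars are the mean and SD of the 3 labeled medians, small dots are the libraries, classes with fewer than 10 intervals are left out, and the dashed line marks the T share of 0.22. From 24-26% to 32-35% the blue points rise from 0.0353 to 0.0407, and the T-poor classes lie below.

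T share and G+C content went together. With the other intervals weighted to the G+C content of the T-poor ones, the difference fell to -0.00494 at 1000 covered T and to -0.00167 at 100 covered T. Among intervals with 48% to 52% G+C and at least 100 covered T, 40 T-poor intervals had 0.0329 ± 0.00125 and 1428 others 0.0370 ± 0.000851 (SD, n = 3). At 52% to 56% G+C, 123 T-poor intervals had 0.0338 ± 0.00115 and 1045 others 0.0352 ± 0.000224 (SD, n = 3). Above 56% G+C, 169 T-poor intervals had 0.0323 ± 0.00119 and 287 others 0.0341 ± 0.00148. The T-poor median was the lower one in 3 of 3 labeled libraries in each class. T-poor minus other was -0.00411 ± 0.000439, -0.00142 ± 0.000925 and -0.00182 ± 0.000371 in that order, so the first class stayed nearer to the unsplit difference. Weighting the other intervals by length left the difference at -0.00905 and weighting them by read count at -0.00972. In the length classes under 500, from 500 to under 1000 and from 1000 bases on, at 100 covered T or more, it was -0.00550 ± 0.00252, -0.00404 ± 0.000487 and -0.00604 ± 0.00132. The part of base composition in the difference was not tested.

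A rate above the unlabeled background was found for nearly all T-poor intervals with enough covered T. In a likelihood ratio test of beta-binomial counts per interval at unadjusted p below 0.05, 593 of the 677 T-poor intervals with a T covered in each library were higher in the labeled libraries and 0 lower. Among the other intervals of this length 95.9% were called, and among all 19240 intervals tested 94.6%. The 84 T-poor intervals that were not called had a median of 17.5 covered T in their shallowest library, against 123 in those called. With at least 100 covered T, 345 of 348 T-poor intervals were called, against a background of 99.6%. The other 3 were the 18S interval and a pair of overlapping intervals of Vac14, which encodes a scaffold of phosphoinositide metabolism. Both Vac14 intervals held the same reads, with rates of 0.0267, 0.0217 and 0.0248 in the labeled and 0.0118 and 0.0161 in the unlabeled libraries, so the groups did not overlap. On simulated counts without a change the test called 9.79% of intervals, more than its nominal level.

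The rate counts conversions per T, and the share of reads with a conversion counts reads. This share depends on the rate, on the number of T per read and on how conversions are spread over the reads. Over 1 interval per gene, a T-poor read covered 12.4, 14.5 and 14.4 T in labeled replicates 1 to 3, and a read on the other intervals 18.7, 21.2 and 21.5 T. T-poor reads thus covered 66.5% to 68.6% of the T of other reads. A conversion was seen in 29.95%, 29.6% and 27.7% of the T-poor reads and in 42.7%, 46.8% and 46.0% of the other reads. The difference was -16.1 percentage points over the labeled libraries. Without the 18S interval the T-poor share was 30.1%, 34.96% and 34.7% and the difference -11.9 points. Unlabeled reads showed a conversion in 1.41% and 0.972% of the T-poor and 2.40% and 1.56% of the other reads. Counted conversions over counted reads with a conversion gave 1.32 to 1.37 for T-poor and 1.52 to 1.62 for other intervals in the labeled libraries. In the unlabeled libraries this ratio was 0.921 and 0.947 for T-poor and 0.962 and 0.967 for other intervals. A read with a conversion holds at least 1, so both counts do not cover the same events and the ratio is approximate. The rate over summed reads was 0.0319, 0.0276 and 0.0263 in T-poor intervals and 0.0348, 0.0351 and 0.0347 in the others. Without the 18S interval the T-poor values were 0.0323, 0.0319 and 0.0319, and all 3 stayed below the others.

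**Figure D3:**
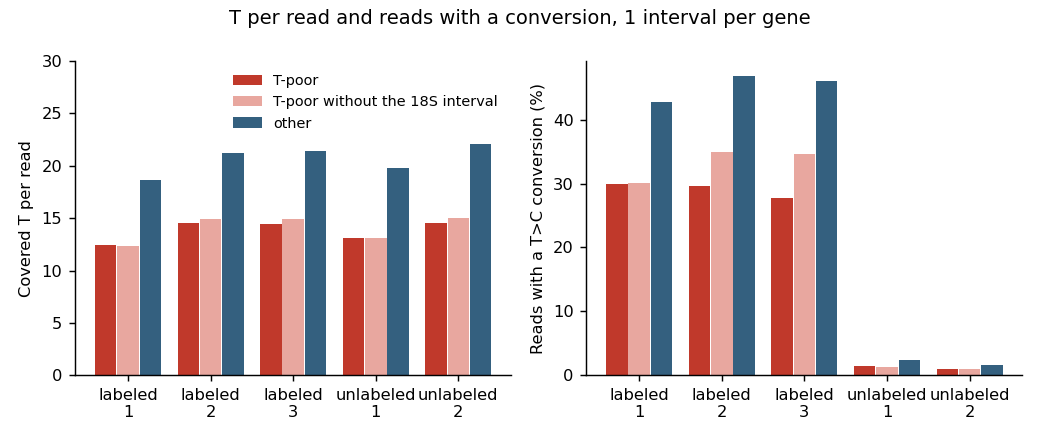
Covered T per read (left) and reads with at least 1 T>C conversion in percent (right) in each library, over 1 interval per gene, for T-poor intervals (red), T-poor intervals without the 18S interval (pink) and other intervals (blue). T-poor reads cover 12.4 to 14.5 T in the labeled libraries, and the pink bars stand at 30.1% to 34.96% of reads with a conversion, below the blue ones.

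The T-poor genes with at least 1000 covered T differed widely among themselves. The mean labeled rate was below the median of the other intervals in 28 of the 31 genes and at most 0.5 times it in 9 genes. The middle 50% of the genes lay between 0.0186 and 0.0360, and of the other intervals between 0.0353 and 0.0426. In 30 of the 31 genes every labeled library was above both unlabeled ones, the 18S interval being the exception.

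After the 18S interval, the lowest rates were those of genes for secreted, lysosomal and endoplasmic reticulum proteins. Hp encodes haptoglobin, a secreted haemoglobin-binding protein. Its interval (chr8:110301760-110302542, minus strand, 81.4% coding sequence) had rates of 0.00407, 0.00634 and 0.00930 in the labeled and 0.000265 and 0 in the unlabeled libraries. It had 528, 442 and 174 labeled reads, and between 3.41% and 8.62% of them carried a conversion. Hp was thus well read and hardly converted, with 0.326% of the other intervals below its mean rate of 0.00657 ± 0.00262 (SD, n = 3). Aebp1 encodes a secreted collagen-binding protein. Its interval (chr11:5821850-5822248) had rates of 0.00937, 0.0112 and 0.0138 and no conversion in the unlabeled libraries, where 4112 and 2799 covered T allow a rate of up to 0.000730 and 0.00107. It overlaps Pold2 on the opposite strand. Ctsa encodes cathepsin A, a lysosomal carboxypeptidase. Its interval (chr2:164681155-164681504) had 0.0106, 0.0136 and 0.0113, and overlaps Pltp on the opposite strand. Rcn3 encodes a calcium-binding protein of the endoplasmic reticulum. Its interval (chr7:44732339-44732679, all in exon) had 0.0150, 0.0155 and 0.0118. Its reads numbered 331, 897 and 247 in the labeled and 393 and 425 in the unlabeled libraries.

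The highest rates were those of Ltbr, Map6, Arpc1b, Gnai2 and Socs3. Ltbr encodes the lymphotoxin beta receptor. Its interval (chr6:125283534-125284192, minus strand) had rates of 0.0374, 0.0372 and 0.0544 in the labeled and 0.00118 and 0.000821 in the unlabeled libraries. Labeled replicate 3 stood apart, with 83 reads. Map6 encodes a microtubule-stabilising protein and had 0.0466, 0.04002 and 0.0397. Coding sequence filled 87.8% of its interval (chr7:98985216-98986344). Arpc1b encodes a subunit of the Arp2/3 complex, which nucleates branched actin. Its interval (chr5:145064670-145064996, plus strand) had 0.0385, 0.0399 and 0.0477, with 2333, 947 and 356 reads. The means of these 3 genes, 0.0430, 0.0421 and 0.0420, were above the median of the other intervals, and 70.5% to 77.8% of the other intervals lay below them. Without labeled replicate 3, Ltbr was below that median, at -0.00157 from it. By the share of reads with a conversion, Arpc1b had 35.9%, 34.1% and 41.3%. Gnai2, an inhibitory G protein subunit, followed with 0.0396, 0.0380 and 0.0370, and Socs3, an inhibitor of cytokine signalling, with 0.0362, 0.0384 and 0.0384. The spread of Gnai2 and Socs3 overlapped.

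Between these ends lay the other well-read genes. Tspan4, a tetraspanin, had a mean rate of 0.0339 ± 0.00186 (SD, n = 3). Eng (endoglin, a co-receptor for transforming growth factor beta) had 0.0277 ± 0.00287, and Cyb5r3, a cytochrome b5 reductase, 0.0255 ± 0.00341. Tspan4 overlaps Chid1 and Eng overlaps Fpgs on the opposite strand. The 10 highest levels in the labeled libraries went from 2901 CPM for the 18S interval and 992 ± 425 CPM for Arpc1b to 278 ± 69.6 CPM for Cyb5r3. Arpc1b alone had 1480, 792 and 703 CPM in the labeled and 1835 and 788 CPM in the unlabeled libraries.

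**Figure D4:**
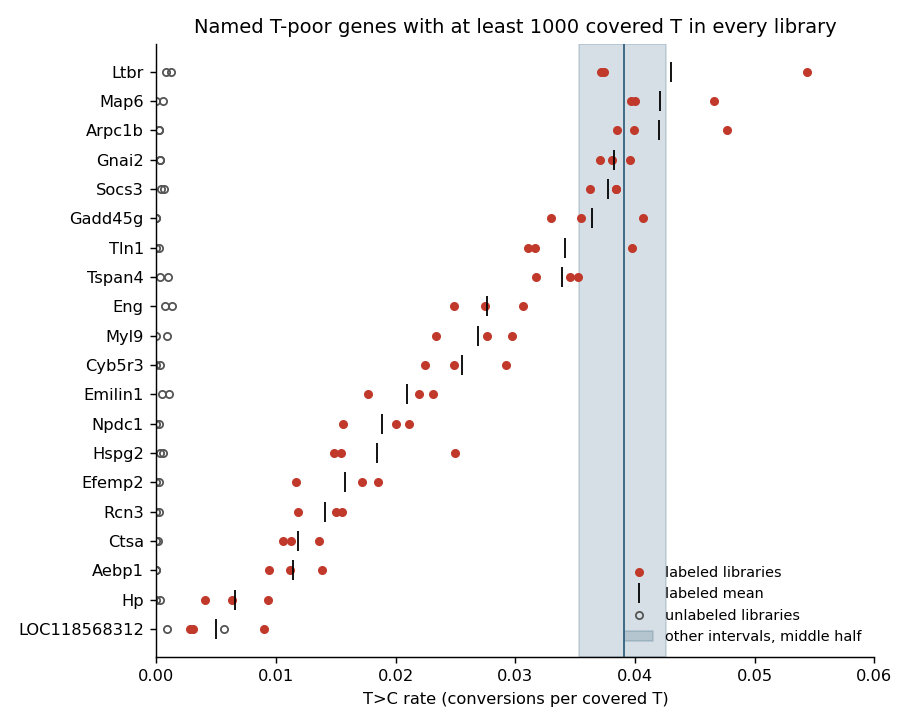
T>C rate (conversions per covered T) of 20 named T-poor genes covered at 1000 T or more per library, in 3 labeled (filled) and 2 unlabeled (open) libraries, with the labeled mean as a black mark. The blue line and band are the median and the middle 50% of the other intervals, 0.0353 to 0.0426, and the genes run from 0.00496 for LOC118568312 to 0.0430 for Ltbr.

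The rates of genes next to the threshold on the T share overlapped. Just inside it, Socs3 (T share 21.98%), Npdc1 (21.9%) and Gnai2 (21.8%) had mean rates of 0.0377, 0.0189 and 0.0382. Just outside it, Thy1 (22.2%) and Erp29 (22.2%) had 0.0180 and 0.0313. The lowest T shares with this coverage were those of Gadd45g at 16.9%, Arpc1b at 17.7% and Myl9 at 17.8%. Gadd45g encodes a stress-induced growth arrest protein and had rates of 0.0355, 0.0407 and 0.0330 in the labeled libraries and 0 in the unlabeled ones. Myl9, a myosin light chain of smooth muscle and stress fibres, had 0.0234, 0.0297 and 0.0276. The genes poorest in T were thus not those with the lowest rates.

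A few genes held a T-poor interval and a separate interval of higher T share, both with at least 100 covered T, and both come from 1 gene's transcripts. Cp (ceruloplasmin) had a mean rate of 0.0113 in the T-poor and 0.0105 in the other interval. Thra, a thyroid hormone receptor, had 0.0296 and 0.0220, Dhrs3, a retinal reductase, 0.0307 and 0.0304, and Kmt2c, a histone methyltransferase, 0.0417 and 0.0389. In none of these 4 genes was the T-poor rate the lower one in all 3 labeled libraries. Coverage of the shallower interval was 171 to 271 T, so that these pairs are imprecise.

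The share of genes with a T-poor interval was counted in each gene class. Of all 14050 gene names with an interval of this length, 7.30% had a T-poor one. Actin cytoskeleton and adhesion genes had the largest share, with 9 of 53 (17.0%), namely Arpc1b, Cnn1, Flnc, Itga11, Itga3, Itga5, Myl9, Tln1 and Tpm2. Respiratory chain subunits had 3 of 22, glycolytic enzymes 2 of 18 and collagen processing enzymes 3 of 29. None was found among 38 collagen chains, 52 Rab GTPases, 21 ribosomal proteins and 13 proteasome subunits. Zfp zinc finger genes had 12 of 318 (3.77%). Slc transporters had 21 of 298 (7.05%), mitochondrial ribosomal proteins 3 of 38 (7.89%), developmental transcription factors 8 of 112 (7.14%) and immediate early and short-lived regulators 4 of 56 (7.14%), all near the share of all genes. RNA helicases had 2 of 34 and metalloproteases 2 of 53. The class shares are descriptions without a test, and most rest on few genes. They were not adjusted for interval length, with which the T-poor share fell.

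**Figure D5:**
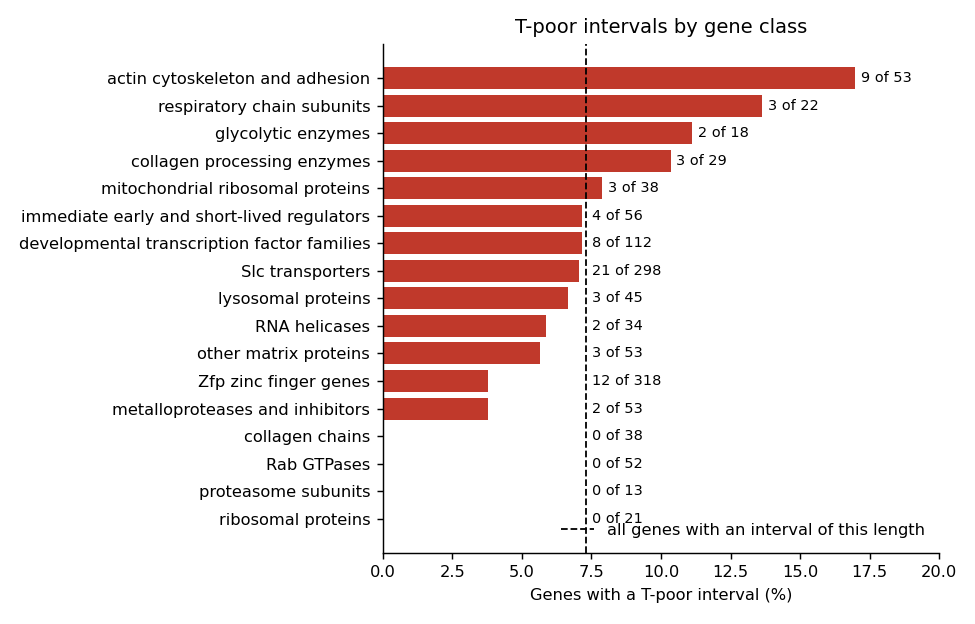
Percent of the genes of each class that had a T-poor interval, with the number of genes beside each bar. The dashed line is the share over all 14050 gene names, 7.30%. The actin cytoskeleton and adhesion genes reach 17.0%, and 4 classes have none.

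In the T-poor intervals of 3 other matrix proteins, the mean of the library medians was 0.0182 ± 0.00337, and in 47 other genes of that class 0.0192 ± 0.000807 (SD, n = 3). Efemp2 (fibulin-4, an elastic fibre protein) had 0.0185, 0.0172 and 0.0116, and overlaps Mus81 on the opposite strand. Emilin1, another elastic fibre protein, had 0.0220, 0.0231 and 0.0177, and Hspg2 (perlecan, a basement membrane proteoglycan) 0.0249, 0.0149 and 0.0154. Lysosomal proteins had 0.0142 ± 0.00285 in 2 T-poor genes, Ctsa and Ctsz, and 0.0169 ± 0.00225 in 40 others. Galns, the third of them, had 48 covered T in its shallowest library. Collagen processing enzymes had 0.0261 ± 0.000356 in 2 T-poor genes and 0.0248 ± 0.00152 in 25 others. The members of that pair lay apart, on either side of the value for the others. P3h3, a prolyl 3-hydroxylase family member, had 0.0165 ± 0.00344 and P4ha3, a prolyl 4-hydroxylase subunit, 0.0356 ± 0.00278.

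The actin cytoskeleton and adhesion class had 0.0315 ± 0.00530 in 7 T-poor genes and 0.0394 ± 0.00123 in 44 others. Tln1 (talin, which links integrins to actin) had 0.0310, 0.0398 and 0.0316. Immediate early and short-lived regulators had 0.0346 ± 0.00167 in 4 T-poor genes and 0.0362 ± 0.000835 in 37 others. Respiratory chain subunits had 0.0288 ± 0.00681 in 3 and 0.0380 ± 0.00276 in 18. Among these Atp5d, a subunit of ATP synthase, ranged from 0.0156 to 0.0361, and Ndufa10, of complex I, had 0.0429 ± 0.0104. Zfp genes had 0.0378 ± 0.00817 in 6 and 0.0366 ± 0.000558 in 128, and Slc transporters 0.0383 ± 0.00680 in 3 and 0.0383 ± 0.000856 in 89. Each class value rests on 2 to 7 T-poor genes, and differences between classes were not tested. Over genes on none of the lists the values were 0.0334 ± 0.000745 for 216 T-poor and 0.0387 ± 0.000527 for 5344 other genes. Without the matrix, collagen, protease and lysosomal lists the difference at 1000 covered T was -0.00865.

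Total reads were compared to see whether S4U went with other levels of these genes. edgeR's quasi-likelihood test, fitted without pairing the libraries by number, found 0 of 296 T-poor genes changed at an adjusted p below 0.05, and 0 of all 9806 genes tested. Fitted with a block on replicate number, the same test called 31 T-poor genes (24 higher, 7 lower) and 1146 of all genes. No source ties these numbers between the groups. DESeq2, which left an adjusted p for 54 T-poor genes, called 0 of them. Without the block, the smallest edgeR adjusted p of a T-poor gene was 0.530. At unadjusted p below 0.05, 12 T-poor genes (4.05%) were higher and 3 (1.01%) lower in the labeled libraries, against 2.85% and 3.13% of all genes. The median log2 fold change was 0.17 over the T-poor genes and 0.02 over all genes. It was 0.06 without labeled replicate 2, 0.30 without labeled replicate 1 and 0.33 without unlabeled replicate 2, and over the 5 left-out libraries 6 to 33 T-poor genes were higher and 0 to 7 lower at unadjusted p below 0.05. Tnfrsf12a, the receptor of the cytokine TWEAK, was among those higher at the unadjusted p, with 329, 170 and 80 reads in the labeled and 156 and 39 in the unlabeled libraries before scaling for depth. Gadd45g had 395, 270 and 89 against 213 and 103 reads, or 251, 226 and 176 CPM against 116 and 103 CPM. Its log2 fold change was 1.07 with an edgeR adjusted p of 0.543 without the block, so it did not pass that test. Cnn1, one of the smooth muscle markers above, had 23, 13 and 10 reads against 11 and 6, and the part of these cells in it was not tested. Tnfrsf12a and Cnn1 fall outside the rule for naming genes by read count and were picked after their values were seen.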

How the data were processed

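The 5 SLAMseq libraries were made with a 3′ end kit with molecular identifiers. Per the file headers and the methods, the authors removed duplicate molecules and ran SLAM-DUNK 0.4.3 on mm39 (GRCm39). The deposited counts are reads, reads with a conversion, covered T, conversions and T content per 3′ UTR interval. The authors' conversion rate is a fraction of covered T. The deposited CPM divides by 10975173 to 14616278 reads, so levels were recomputed per 1000000 reads on 1 interval per gene. The origin of the intervals is not given in the sources used here.

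Each library listed 97442 rows, reduced to 40428 distinct intervals. All 40380 intervals on reference chromosomes had the listed T content in GRCm39. Members and gene lists were chosen with earlier results of these data known. One interval per gene was that with the highest labeled CPM.

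Tests were an exact permutation over libraries, a beta-binomial likelihood ratio test per interval (Python 3.11.15, scipy 1.17.1, numba 0.67.0) and edgeR 4.0.16 with TMM factors and Benjamini-Hochberg adjustment (R 4.3.3), with DESeq2 1.42.0 as an alternative. On simulated data for 9806 genes edgeR recovered 33.5% of 200 genes changed by the log2 fold change given above. On 3000 simulated intervals the beta-binomial test recovered 94.5% of 200. Limits on a rate of 0 use 3 counts and cover counting error only.

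Genes were named by rule: the 10 highest levels, the 5 highest and 5 lowest rates and the 3 lowest T shares with at least 1000 covered T, the 3 genes on either side of the threshold, up to 3 per class by level, and genes past the edgeR threshold. Named class members with fewer than 100 covered T (9 genes, such as Mmp15, Hoxc9 and Foxe1) are not described further. Some genes that the rule or a comparison of intervals within a gene would name are not reported here. Alternatives were other filters, thresholds, scalings and left-out libraries.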

Additional observations from a re-analysis of the deposited data

How the results depend on the processing

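Every alternative run, 22 of 22, left the T-poor median T>C rate below that of the other intervals. The difference moved by more than the spread between libraries to -0.00521 with at least 100 covered T, -0.00702 at a T share of 0.24 or less and -0.00721 from 1000 bases on. Among the alternatives added after the data were seen, it was -0.00567 for pooled conversions without the 18S interval (-0.0101 with it), -0.00494 and -0.00167 with G+C weights at 1000 and 100 covered T, and -0.00518 with read count weights at 100 covered T. Leaving out 1 library gave -0.0103 to -0.00728. The value of -0.00728 was without labeled replicate 3, where the coverage minimum kept 63 T-poor intervals in place of 40. It thus differs in both library and intervals. A minimum of 5000 covered T left no T-poor interval and gives no value.

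The count of T-poor intervals with a raised rate was 39 with at least 1000 covered T, 345 with at least 100, 329 for 1 interval per gene and 174 at a T share of 0.20 or less, all from fewer intervals tested. It was 591 after Benjamini-Hochberg adjustment and 527 to 610 without 1 library.

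No T-poor gene was called changed in read count under any edgeR or DESeq2 alternative but the replicate block. The block called 31 (24 higher, 7 lower) and 1146 of all genes. The replicate numbers are a hint from the data only, and no source ties them. Deviations of same-numbered libraries from their group means correlated at 0.784 and 0.638. With 2 unlabeled libraries those deviations are exact opposites, so these values are not separate hints. DESeq2 called 16 of all genes and 0 of the T-poor ones.

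The ratio of levels was 0.767 with at least 10 reads, 0.333 with no filter, 0.483 at a T share of 0.20 or less, 0.663 under 1000 and 0.530 from 1000 bases on, and 0.528 to 0.558 without 1 labeled library. The difference in reads with a conversion was -20.2 points as a median over intervals with at least 50 reads, -20.5 at a T share of 0.20 or less, -11.9 without the 18S interval and -17.8 to -15.01 without 1 labeled library.

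Of 36 named genes with at least 100 covered T, 29 lay below the median of the other intervals by rate and 35 by the share of reads with a conversion. Those that changed side were Arpc1b (-16.8 points), Ltbr (-7.24), Map6 (-3.37), Ndufa10 (-20.8), Slc25a38 (-0.945) and Zfp593 (-7.55). T-poor reads cover fewer T, so a lower share of reads follows in part from the rule and is no separate check of the rate. Leaving out 1 labeled library changed the side by rate in 5 of 108 cases, in Ltbr (-0.00157 without labeled replicate 3), Gadd45b, Slc39a13 and Zfp651. The cause was not tested. Depth limits the result to the 348 T-poor intervals with at least 100 covered T, or 24.4% of them.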
